A study of Rattus norvegicus with 6 samples.

Results

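The genes described here encode 6 transcription factors of the AP-1 and immediate-early response, namely Fos, Jun, Junb, Atf3, Egr1 and Myc, in cultured rat tenocytes, the resident cells of tendon. They were taken from the deposited table by 6 Ensembl identifiers, each given with its symbol, and all 6 were found among 19133 genes. The cells came from Achilles tendons of Sprague–Dawley rats, and all of them were kept in complete medium. The control group received fresh complete medium (n = 3 libraries), and the IL-1β group was given IL-1β, a cytokine that sets off inflammation, at 50 ng/mL over 24 h (n = 3 libraries). The study describes its data as coming from independent experiments, but neither it nor the labels name the animal or culture behind each library, so the p-values below measure only the spread between these libraries. Whether the cells carry the defining markers of tenocytes was not checked here, because the table gives no symbols for the marker genes.

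AP-1 is a dimer of proteins that grip DNA through a basic leucine zipper. Jun proteins can pair with each other or with Fos, Fos needs a Jun partner, and Atf3 is a related zipper protein that often acts as a repressor. Egr1 binds DNA through zinc fingers, and Myc pairs with Max to drive genes of growth and metabolism. Fos, Jun, Egr1 and Myc are classical immediate-early genes: their transcripts appear within minutes of a stimulus, without new protein synthesis, and are short-lived. In fibroblast-like cells, IL-1β reaches AP-1 through MAP kinases, and AP-1 binds the promoters of matrix metalloproteinase genes. A single time point of 24 h samples the late state of these genes and not the early burst.

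The promoters of Junb and Egr1 are shown because these genes passed both thresholds of the comparison below, in opposite directions. The sequences are from RefSeq on the GRCr8 assembly of the rat genome, both on the plus strand, and hold the 250 bases before the annotated start. Junb lies at chr19:40080876-40081125 and Egr1 at chr18:26736828-26737077. Fos, Jun, Atf3 and Myc had no entry in the table used. In Junb the capitals mark, from left to right, TGACG (a partial cAMP response element), the CCAAT box and the TATA box. In Egr1 they mark the CCAAT box at the left, then 2 CArG boxes, the core of the serum response element, and outside these the partial cAMP response element read on the minus strand.
Junb: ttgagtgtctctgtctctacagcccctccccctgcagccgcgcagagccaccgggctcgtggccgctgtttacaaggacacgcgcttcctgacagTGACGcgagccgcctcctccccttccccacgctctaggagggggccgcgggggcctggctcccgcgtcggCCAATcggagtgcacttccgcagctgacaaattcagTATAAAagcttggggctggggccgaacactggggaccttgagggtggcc
Egr1: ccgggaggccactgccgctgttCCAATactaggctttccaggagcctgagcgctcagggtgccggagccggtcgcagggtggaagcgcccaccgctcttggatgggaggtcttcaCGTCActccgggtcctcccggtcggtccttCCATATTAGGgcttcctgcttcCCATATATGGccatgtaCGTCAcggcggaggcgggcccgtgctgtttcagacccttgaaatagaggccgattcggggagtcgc

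Both strands of these windows were searched, and a match is a description of the letters only. The Egr1 window held 2 CArG boxes and the Junb window none, where 1.5% of 33469 rat promoter windows of this length hold at least 1. The partial cAMP response element (TGACG) was found at 2 places in Egr1 and 1 place in Junb, and 18.2% of all windows hold it. TATAAA, the usual core of a TATA box, was found in Junb, beginning at position −49 from the start, and in 12.9% of all windows. The CCAAT box was found at 1 place in each window and in 34% of all. Neither window held the full cAMP response element TGACGTCA, the NF-kB motif or the AP-1 site in the form TGACTCA or in the form TGAGTCA. The Sp1 site GGGCGG and the Egr1 site with the letters GCGTGGGCG were not in these windows either.

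The comparison asked which of these factors differed between tenocytes with and without IL-1β. Junb rose with IL-1β and Egr1 fell, each by about the 2-fold change that the call requires. Jun and Myc were also lower with IL-1β, by about the same amount as each other but by less than that. Atf3 was scarce and slightly lower, and for Fos no difference could be shown. Genes were compared with limma on log2(FPKM + 0.1) after scaling between libraries, where FPKM are fragments divided by gene length and by the fragments of the library. A gene passed both thresholds if its Benjamini-Hochberg adjusted p was below 0.05 and it changed by more than 2-fold. Of the 6 genes, all of which passed the filter on low values, 2 passed both thresholds, and 8.69% of the 12408 tested genes did. In each direction it was 1 of 6, against a background of 5.37% of tested genes higher and 3.32% lower with IL-1β. With the adjusted p as the sole criterion, 5 of the 6 passed, against 38.4% of tested genes. Of these, 1 was higher (background 19.3%) and 4 were lower (background 19.1%). Among the 4 lower genes, Atf3 lost this call in 7 of 15 alternatives. The median log2 fold change of the 6 genes was −0.58, and that of all tested genes was 0.001. In bulk RNA, fewer cells that use a gene and less RNA per cell cannot be told apart.

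**Figure D1:**
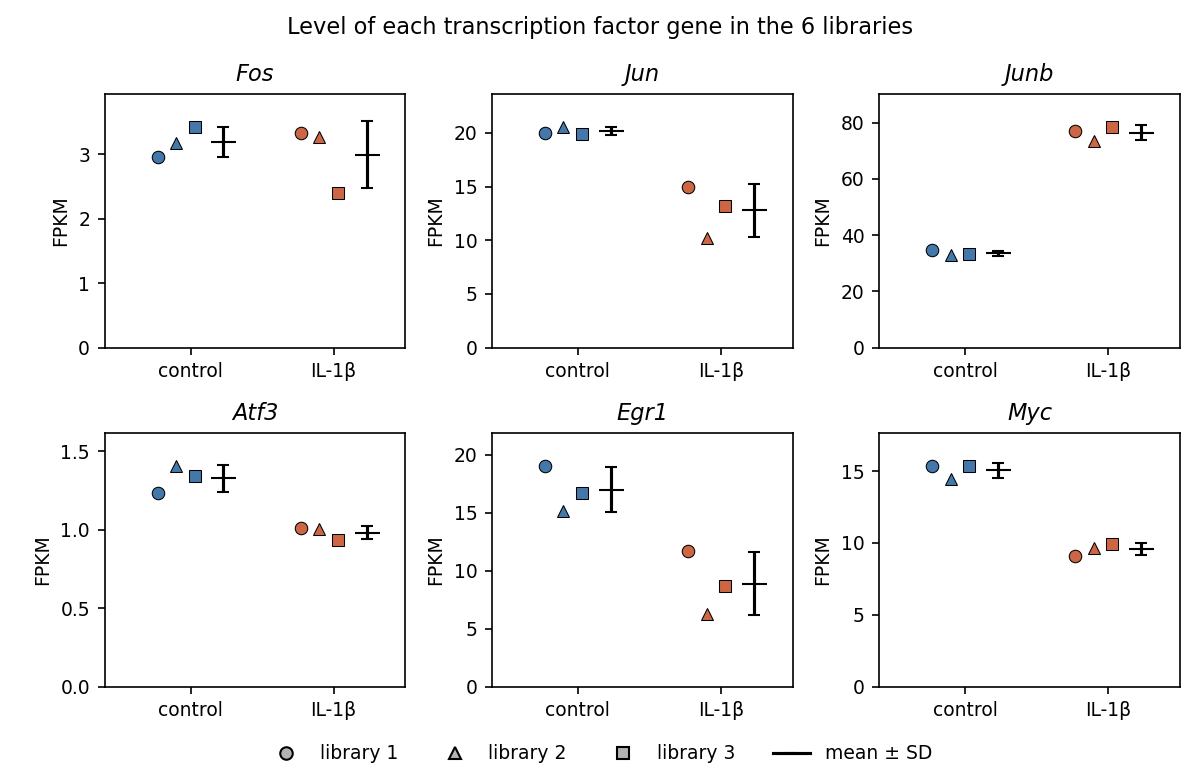
FPKM of each gene (vertical axes, from 0, each with its own scale) in the 3 control and 3 IL-1β libraries, 1 symbol per library number, with the mean and SD beside each group. The groups stand apart for Jun, Junb, Atf3, Egr1 and Myc and overlap for Fos.

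Junb (ENSRNOG00000042838), the Jun family member that can act in place of Jun or restrain it, was the most abundant of the 6 transcripts in every library. It was present at 34.66, 32.96 and 33.38 FPKM in control libraries 1, 2 and 3 and at 77.2, 73.4 and 78.6 FPKM in IL-1β libraries 1, 2 and 3. All 3 IL-1β libraries were more than 2 times any control library, and the values within a group lay close together. The mean was 33.7 ± 0.885 FPKM for the controls and 76.4 ± 2.69 FPKM with IL-1β (SD, n = 3 each). The log2 fold change was 1.12 with a standard error of 0.048 (95% interval 1.01 to 1.24, adjusted p = 3.5e-06 in limma). This is 2.18-fold higher, with an interval from 2.01-fold to 2.35-fold, so the lower end sits at the 2-fold threshold itself. In limma's TREAT test, which asks whether a change exceeds 2-fold, Junb had an adjusted p of 0.35. Of all tested genes, 614 had a higher log2 fold change than Junb. Its level was above that of 83.2% of tested genes in controls and 91.8% with IL-1β.

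Jun (ENSRNOG00000026293), the strongest activator among the Jun proteins and a partner of Fos, moved the other way. It was present at 20.01, 20.58 and 19.85 FPKM in control libraries 1, 2 and 3 and at 14.96, 10.17 and 13.19 FPKM in IL-1β libraries 1, 2 and 3. The control libraries were almost level, whereas IL-1β library 2 was well below library 1. The mean went from 20.2 ± 0.382 to 12.8 ± 2.42 FPKM (SD, n = 3 each), and the log2 fold change was −0.73 with a standard error of 0.134 (95% interval −1.04 to −0.41, adjusted p = 0.0045 in limma). Jun was thus 1.66-fold lower, below the 2-fold threshold in its estimate but with an interval that reaches it.

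Fos (ENSRNOG00000008015), the AP-1 subunit that binds DNA only together with a Jun protein, was low in all libraries. It was present at 2.96, 3.18 and 3.43 FPKM in control libraries 1, 2 and 3 and at 3.33, 3.26 and 2.39 FPKM in IL-1β libraries 1, 2 and 3. IL-1β libraries 1 and 2 lay within the range of the controls, and library 3 lay below it. The log2 fold change was −0.16 with a standard error of 0.145 (adjusted p = 0.44 in limma). Its 95% interval, −0.50 to 0.18, allows anything from 1.41-fold lower to 1.14-fold higher, so a change of 2-fold in either direction lies outside it. Without IL-1β library 3 the log2 fold change was 0.0001, and without library 1 it was −0.25. Fos rested on 140 to 228 reads per library, recovered from the steps of the deposited values.

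Atf3 (ENSRNOG00000003745), the stress-inducible factor of the ATF family, was the least abundant of the 6. It was present at 1.24, 1.41 and 1.34 FPKM in control libraries 1, 2 and 3 and at 1.01, 1.00 and 0.934 FPKM in IL-1β libraries 1, 2 and 3, so the groups did not overlap. These values stand for 139 to 163 reads in the control libraries and 100 to 126 in the IL-1β libraries. The log2 fold change was −0.45 with a standard error of 0.133 (95% interval −0.77 to −0.14, adjusted p = 0.033 in limma), which is 1.37-fold lower. With a pseudocount of 1 the log2 fold change was −0.26, since a pseudocount of this size weighs on a gene near 1 FPKM. The adjusted p of 0.033 without that change is close to the threshold of 0.05, and it was above the threshold in 7 of the 15 alternatives. It was 0.08 with the replicate block, 0.06 without a filter on low values, 0.057, 0.10 and 0.083 without control library 1, 2 or 3 and 0.069 and 0.088 without IL-1β library 2 or 3.

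Egr1 (ENSRNOG00000019422), the zinc finger factor driven by serum response elements, fell with IL-1β. It was present at 19.1, 15.2 and 16.8 FPKM in control libraries 1, 2 and 3 and at 11.7, 6.27 and 8.70 FPKM in IL-1β libraries 1, 2 and 3. The highest IL-1β library was below the lowest control library, but both groups were spread out. The mean went from 17.0 ± 1.95 to 8.89 ± 2.72 FPKM (SD, n = 3 each), and the log2 fold change was −1.02 with a standard error of 0.217 (adjusted p = 0.0086 in limma). Egr1 was 2.03-fold lower, with a 95% interval of the log2 fold change from −1.54 to −0.51. The call rests on the fold threshold and on single libraries. The log2 fold change was −0.93 without control library 1, −0.79 without IL-1β library 2, −0.97 with FPKM as deposited and −0.95 with a pseudocount of 1, all under 2-fold, and the TREAT test gave an adjusted p of 1. The adjusted p against no change stayed under 0.05 in all 15 alternatives with that test.

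Myc (ENSRNOG00000004500), a driver of growth and proliferation genes, had closely spaced values in both groups. It was present at 15.4, 14.5 and 15.4 FPKM in control libraries 1, 2 and 3 and at 9.12, 9.67 and 9.96 FPKM in IL-1β libraries 1, 2 and 3. Every IL-1β library was far below every control library, with little spread on either side. The mean went from 15.1 ± 0.529 to 9.58 ± 0.429 FPKM (SD, n = 3 each), and the log2 fold change was −0.70 with a standard error of 0.055 (95% interval −0.83 to −0.58, adjusted p = 6.2e-05 in limma). Myc was 1.63-fold lower, and its interval ends short of 2-fold.

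**Figure D2:**
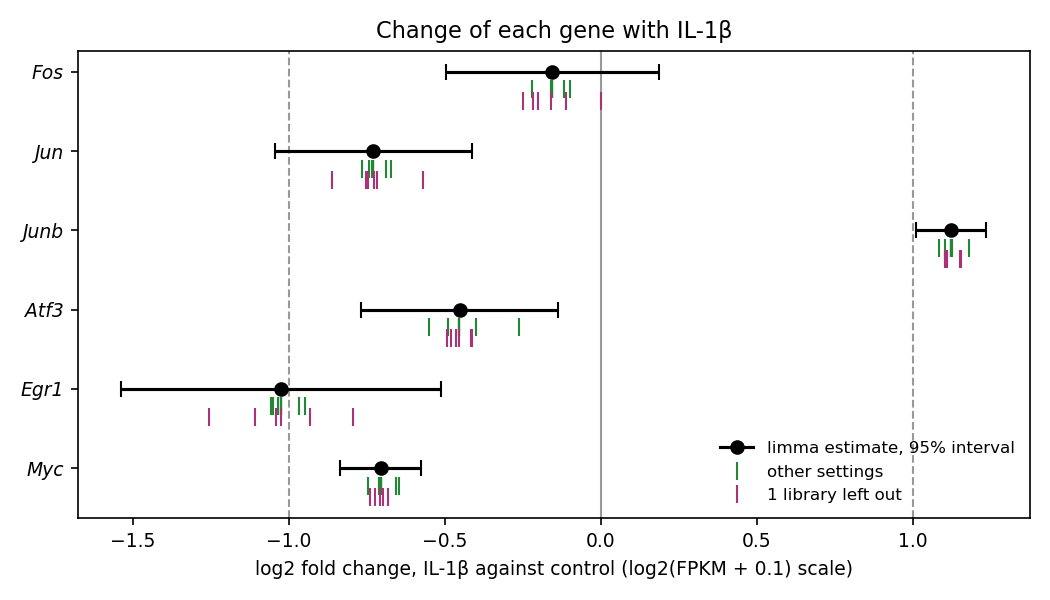
log2 fold change of each gene with IL-1β (horizontal axis, log2(FPKM + 0.1) scale), with its 95% interval from limma, the estimates under other settings (green) and with 1 library left out (purple), and dashed lines at a 2-fold change. Junb alone lies well to the right of 0, the Egr1 estimates fall on both sides of the left dashed line, and the Fos interval spans 0.

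The groups of Jun, Junb, Atf3, Egr1 and Myc did not overlap, which makes 5 of 6, where 52.0% of tested genes showed the same separation. Upward this was 1 of 6 (background 31.2%) and downward 4 of 6 (background 20.7%). Overlap was judged on FPKM as deposited, without the scaling used in the fits. Unscaled values lay slightly higher with IL-1β, by a median of 0.058 in log2 against 0.001 once scaled. By adjusted p on scaled values the background was even, at 19.3% higher and 19.1% lower. Background shares of separated genes on scaled values were not computed, so the uneven 31.2% and 20.7% hold for deposited FPKM only. An exact permutation test of 3 against 3 cannot go below p = 0.1, so the calls for single genes draw on the spread that limma estimates over all tested genes.

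Since FPKM values are per length, the levels of different genes can be set side by side. In the control group the order was Junb, Jun, Egr1, Myc, Fos and Atf3, from 33.7 to 1.33 FPKM. The ranges of Egr1 (15.2 to 19.1 FPKM) and Myc (14.5 to 15.4 FPKM) overlapped there, although Egr1 was above Myc within each of the 3 control libraries. In the IL-1β group the mean levels ran Junb, Jun, Myc, Egr1, Fos and Atf3, and the range of Egr1, 6.27 to 11.7 FPKM, overlapped with those of Jun and Myc, which did not overlap with each other. Junb was 1.67 times the level of Jun in controls and 6.01 times with IL-1β (ratios of FPKM + 0.1, geometric means).

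This ratio of Junb to Jun was also followed within each library, where any scaling between libraries cancels. On the log2 scale it was 0.74 ± 0.057 in controls and 2.59 ± 0.241 with IL-1β (SD, n = 3 each). Junb gained on each of the other 5 genes, by 1.28 against Fos, 1.58 against Atf3, 1.83 against Myc, 1.85 against Jun and 2.15 against Egr1 on the log2 scale. The groups did not overlap in any of these 5 ratios (exact two-sided permutation test, p = 0.1 each, 0.167 after Benjamini-Hochberg adjustment over 15 pairs). Over all 15 pairs of the 6 genes, 9 had groups that did not overlap, against 54.4% of all pairs of tested genes. Fos gained 0.57 on Jun, which itself was lower with IL-1β, and this gain was 0.35 without IL-1β library 2. Jun and Myc kept nearly the same ratio, with a difference of 0.02 on the log2 scale (exact permutation p = 1), although this ratio lay between −0.51 and −0.37 in controls and, more widely, between −0.71 and −0.07 with IL-1β. The small difference turned to −0.02 without control library 2 and to −0.14 without IL-1β library 2, and was 0.18 without IL-1β library 1.

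The 6 genes together made up 90.4 ± 2.79 FPKM in controls and 111.6 ± 7.03 FPKM with IL-1β (SD, n = 3 each). Junb supplied 37.2% ± 0.271 of this sum in controls and 68.5% ± 2.51 with IL-1β. The share of Jun went from 22.3% to 11.4%, that of Egr1 from 18.8% to 7.89% and that of Myc from 16.7% to 8.61%. Atf3 went from 1.47% to 0.882% of the sum. Fos went from 3.53% to 2.70%, although its FPKM values overlapped between the groups. Without Junb, the other 5 genes summed to 56.7 ± 1.93 FPKM in controls and 35.2 ± 4.88 FPKM with IL-1β. Junb was thus the single gene of the 6 with a higher mean beside the higher sum. None of these sums and shares overlapped between the groups (exact two-sided permutation test, p = 0.1 each, and 0.1 after adjustment over the 9 sums and shares compared). No background was computed for sums or shares. Separation as such was common, at 52.0% for single genes and 54.4% for gene pairs. The 6 shares are parts of 1 total, so a larger Junb share leaves less for the other 5 genes. A separated share, such as that of Fos, is thus no separate evidence of a change in that gene.

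**Figure D3:**
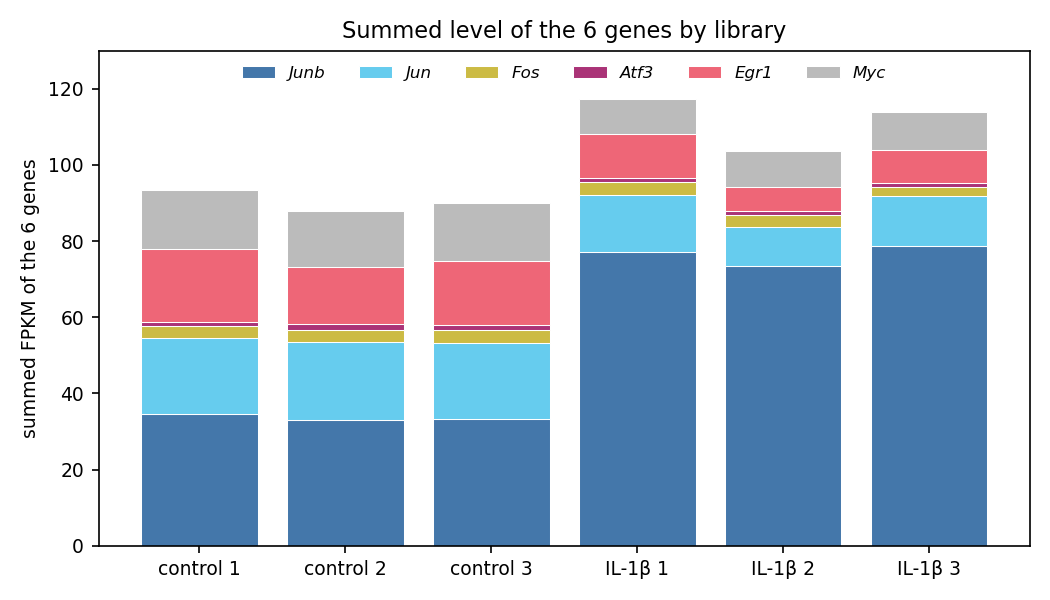
Summed FPKM of the 6 genes (vertical axis, from 0) in each library, stacked by gene. The IL-1β libraries reach 103.8 to 117.3 FPKM and the control libraries 87.8 to 93.3, and the Junb part is the one that is larger with IL-1β.

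The genes also differed in how far the 3 libraries of a group lay apart. In the IL-1β group the SD of the log2 values was 0.460 for Egr1, larger than that of 94.9% of all tested genes, 0.294 for Jun (89.7%) and 0.273 for Fos (88.5%). In the control group the same SD was 0.176 for Egr1 (larger than that of 79.0% of tested genes), 0.030 for Jun (10.8%) and 0.089 for Fos (52.0%), so Egr1 was among the more variable genes without IL-1β as well. Junb, Myc and Atf3 had an SD of 0.055, 0.044 and 0.070 with IL-1β and of 0.052, 0.058 and 0.077 in controls. The median over all tested genes was 0.085 for the controls and 0.102 with IL-1β.

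The spread was set beside what read counting alone would give. For Egr1, with 848 to 1362 reads in the IL-1β libraries, the coefficient of variation of FPKM was 30.6%, and counting alone would give 3.1%. For Jun in the same libraries the values were 19.0% and 2.6%. For Atf3 the variation between IL-1β libraries, 4.2%, was below the 9.5% that its reads alone would give. Both Jun and Egr1 were highest in IL-1β library 1 and lowest in library 2, whereas Fos was lowest in library 3. Whether the spread itself differs between the groups was not tested.

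**Figure D4:**
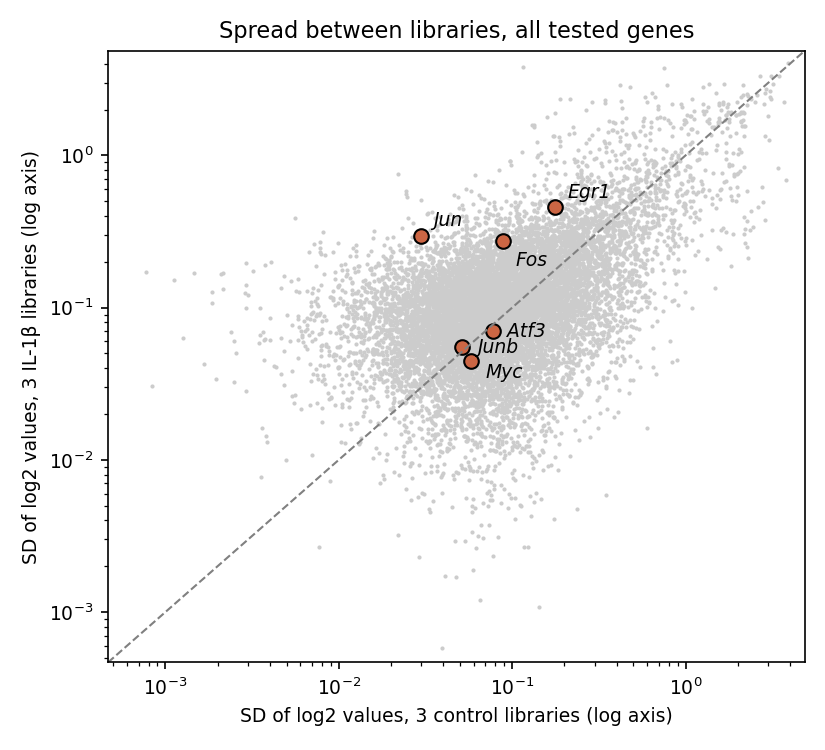
SD of the log2 values over the 3 control libraries (horizontal axis, log scale) against that over the 3 IL-1β libraries (vertical axis, log scale) for all tested genes in grey and the 6 genes in orange, with a dashed line at equal spread (7 genes with an SD of 0 cannot be drawn). Egr1, Jun and Fos lie well above the line, and Junb, Atf3 and Myc lie near it.

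The likeness of patterns was measured as the Euclidean distance between log2 values centred on each gene's mean over the 6 libraries. By this measure the gene nearest to Egr1 among the other 5 was Jun (distance 0.510), and Jun ranked 19 among all tested genes in nearness to Egr1. For Jun, the nearest of the other 5 was Myc (0.464), which ranked 155 among all tested genes. In rank among all tested genes, the other genes had no member of the group so near. By distance, Myc and Atf3 were nearer to each other (0.395) than the genes of both these pairs. Fos was nearer to Atf3 (0.480) than Egr1 was to Jun. The closest to Myc was Atf3 (rank 688), the closest to Atf3 was Myc (rank 1724), and the closest to Fos was Atf3 (rank 3273). For Junb the closest was Fos, at a distance of 1.63 and rank 8788. Among all tested genes, the profile closest to that of Myc was ENSRNOG00000019490 (distance 0.037), which went from 18.6 ± 0.606 to 11.7 ± 0.389 FPKM (SD, n = 3 each; log2 fold change −0.72, adjusted p = 3.3e-05 in limma). The profile closest to that of Junb was ENSRNOG00000048831 (distance 0.038), which went from 1.82 ± 0.0377 to 4.25 ± 0.119 FPKM (log2 fold change 1.12, adjusted p = 4.8e-05 in limma). Both genes were picked for their nearness over the same 6 libraries, so their fold changes and adjusted p are no separate evidence. The symbols of these genes are not paired with their identifiers in the table.

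The libraries held between 36506535 and 43098507 recovered reads, and the depths of the groups overlapped. The median log2 fold change over all tested genes was 0.058 with FPKM as deposited and −0.051 with quantile normalization. Quantile normalization moved Atf3 from −0.45 to −0.55 and Egr1 from −1.02 to −1.06. Under both scalings, the estimate of Junb stayed above 0 and those of the other 5 genes below it, Fos (−0.10 and −0.22) included.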

How the data were processed

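RNA-seq libraries of rat tenocytes (3 control, 3 IL-1β) were made by the authors from oligo(dT)-selected RNA and sequenced in paired-end mode. The authors deposited FPKM values, 1 column per library. The submitters' processing notes name HISAT2 and featureCounts. Versions, genome build, annotation and strand setting are not given in the sources used here, so reads of overlapping genes could be shared.

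The 6 genes, the lists and the tests were chosen with earlier results of these data known. The rule set here for genes named in the text was all 6 genes and, for likeness, the nearest profiles. Lists of other AP-1, immediate-early, Myc network, AP-1 target and marker genes were set by symbol and not run, because 0 identifiers could be paired in the RefSeq table.

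Whole reads were recovered from the FPKM steps for all 19133 genes (tolerance 0.02 read, 0.01 above 20000 reads) (Python 3.11.15, pandas 2.3.3, numpy 2.4.6). Tested on simulated data, the reads were exact for 98.56% of the 3187 genes with at least 20 reads. Libraries were brought to a common scale with median-of-ratios size factors. These were 0.972 to 0.992 in the control libraries and 1.008 to 1.036 in the IL-1β libraries. They did not overlap between the groups, so the scaling lowered log2 fold changes. Egr1 was at −0.97 with FPKM as deposited and at −1.02 after scaling. A pseudocount of 0.1 was added and log2 taken, which understates changes of low genes. Genes reaching 0.5 FPKM in 3 or more libraries were fitted with limma 3.58.1 in R 4.3.3 (intensity trend, two-sided, Benjamini-Hochberg adjustment over 12408 genes). The study's own count test was not run, since the deposited unit is FPKM and the reads here are recovered ones. Ratios and sums were compared with exact permutation tests. Other settings were pseudocounts of 1 and 0.01, other filters and scalings, no trend, TREAT, limma-voom on recovered reads, a replicate block and each library left out. Figures were drawn with matplotlib 3.10.9.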

Additional observations from a re-analysis of the deposited data

How the results depend on the processing

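Jun, Junb, Egr1 and Myc kept their direction and an adjusted p under 0.05 in all 15 alternatives to the limma fit that test against no change. Egr1 nevertheless lost its call by both thresholds in 5 of 16 alternatives. The TREAT test against a 2-fold change called neither Junb (log2 fold change 1.12, adjusted p = 0.35) nor Egr1 (−1.02, adjusted p = 1), and it called 520 genes, 358 higher and 162 lower, in place of 1078, 666 and 412, as its design requires larger changes. With a pseudocount of 1, Egr1 was at −0.95, Atf3 at −0.26 in place of −0.45, and 697 genes passed both thresholds, 231 of them lower. With FPKM as deposited, Egr1 was at −0.97. Without a filter on low values, Atf3 kept its log2 fold change of −0.45 at an adjusted p of 0.06. Over the fits that left out 1 library, the log2 fold change lay between −1.25 and −0.79 for Egr1, −0.49 and −0.41 for Atf3 and −0.25 and 0.0001 for Fos, and the change in the log2 ratio of Myc to Jun between −0.14 and 0.18. The cause of the other changes was not tested. Of the 120 values of the 15 ratios under other pseudocounts and with 1 library left out, 118 kept their direction.

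Same-numbered libraries correlated in their deviations from the group means at 0.094, 0.021 and 0.034 for the numbers 1, 2 and 3. The main fit did not treat the numbers as pairs. Whether same-numbered libraries share an animal, culture or day is not known. With the replicate block, 1080 genes passed both thresholds, and Atf3 had a log2 fold change of −0.45 with an adjusted p of 0.08; no other of the 6 genes lost or gained a call. Fos and Atf3 had the fewest reads of the 6 genes, 100 to 228 per library, where counting alone gives a coefficient of variation of 7.1% to 9.5%.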
